A study of Homo sapiens with 6 samples.

Results

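BST2 and 8 genes linked to it through the interferon response were described in 6 RNA libraries of HEK293 cells, a human embryonic kidney line. The 9 genes were BST2, IFI6, ISG15, IFITM1, IFITM2, IFITM3, STAT2, IRF9 and B2M, taken by name from the 58735 genes of the expression table. BST2 was picked because its level was lower in one line than in the other, and the other 8 were added as genes of the same response. The difference between the lines is therefore given for these 9 genes as a description, with no test. One line stably expressed tensin 2 carrying Y483E, glutamate in place of a tyrosine, which is used to resemble phosphorylated tyrosine. The other stably expressed tensin 2 carrying Y483F, phenylalanine in that place, which cannot be phosphorylated there. Each line gave 3 libraries from total RNA selected with poly-T beads, and no other treatment, interferon included, is named for either line. The labels do not say what promoter drives the construct, or whether each line is 1 clone. If each is, what the amino acid does and how these clones differ otherwise cannot be told apart. The titles call the replicates biological without naming separate cultures, so p-values measure only the spread between these samples.

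Type I interferons bind the receptor chains IFNAR1 and IFNAR2, and the kinases JAK1 and TYK2 then activate STAT2. Together with IRF9, STAT2 is part of a complex that binds the interferon-stimulated response element in promoters and switches on genes of antiviral defence. BST2 (tetherin) is one such gene: its protein is held in the membrane at both ends, by a transmembrane segment and a glycosylphosphatidylinositol (GPI) anchor, and ties budding enveloped viruses to the cell. BST2 is abundant in plasmacytoid dendritic cells and plasma cells, and derivatives of HEK293 are widely used as cells with little of it.

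Levels are the authors' FPKM, reads per unit of gene length scaled to the size of the library. The length took in all annotated exon bases, 3794 for IRF9, whichever of them a transcript holds. Comparisons between genes are therefore rougher than those between libraries. Reads summed to between 17204498 and 23284592 per library. The libraries are numbered 1, 4 and 5 in both lines, which the labels do not explain, and they are called here replicates 1, 2 and 3. The libraries numbered 1 stand apart. Among the 12833 genes that reached a mean of 1 FPKM, limma called 0 genes with all 6 libraries (1566 had an unadjusted p under 0.05), and 733 with the libraries numbered 4 and 5 alone. Differences are therefore also given separately for replicates 1 and for the libraries numbered 4 and 5. TNS2, the gene of tensin 2, lay between 0.753 and 1.05 FPKM in Y483E and between 1.07 and 1.16 FPKM in Y483F. With no library of cells lacking the construct, this does not check the labels. Of 15 genes known from HEK293 cells, 9 had a mean of at least 1 FPKM, led by IRS4 at 159 and VIM at 64.1. The other 6 were under 1 FPKM. Among them PAX2, at 0.984 FPKM, and LHX1, at 0.977 FPKM, both picked after their values were seen, were just short of that minimum. Of 16 leukocyte markers, which would mark cells rich in BST2, 2 reached it (SDC1 and TCF4), and PTPRC, MS4A1, CD3E and CLEC4C had no read in any library. Apart from those 2, the other 14 summed to between 1.09 and 2.25 FPKM over the 6 libraries. With SDC1 and TCF4, the 16 markers summed to between 16.1 and 18.0 FPKM in Y483E and between 17.1 and 17.8 FPKM in Y483F, ranges that overlap.

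The promoter sequences of BST2 and of the linked genes with a response element are shown because these letters are what the genes share beside their place in the pathway. They are from RefSeq on GRCh38.p14, read 5′ to 3′ on the strand of each gene. Capitals mark matches to the response element, searched as GAAA, any 2 bases and GAAA again, and to the gamma-activated site, searched as TTC, any 3 bases and GAA, an element of genes induced by interferon gamma. BST2 is at chr19:17405660-17405786 (minus strand), IFI6 at chr1:27672256-27672368 (minus), ISG15 at chr1:1013364-1013419 (plus), IFITM1 at chr11:313980-314063 (plus), IFITM3 at chr11:320866-320932 (minus) and B2M at chr15:44711353-44711408 (plus).
BST2: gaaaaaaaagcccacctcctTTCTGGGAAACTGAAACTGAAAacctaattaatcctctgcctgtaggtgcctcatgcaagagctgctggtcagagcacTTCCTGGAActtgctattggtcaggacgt
IFI6: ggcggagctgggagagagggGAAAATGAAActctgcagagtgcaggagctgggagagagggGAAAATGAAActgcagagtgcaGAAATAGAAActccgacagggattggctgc
ISG15: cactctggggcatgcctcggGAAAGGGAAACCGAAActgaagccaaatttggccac
IFITM1: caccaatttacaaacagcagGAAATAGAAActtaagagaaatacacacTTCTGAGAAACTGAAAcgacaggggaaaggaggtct
IFITM3: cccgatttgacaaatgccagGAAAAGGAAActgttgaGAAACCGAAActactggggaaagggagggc
B2M: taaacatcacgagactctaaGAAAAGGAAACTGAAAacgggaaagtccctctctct

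In BST2, 2 overlapping copies of GAAACTGAAA began 130 and 124 bases before the RefSeq gene start. The first of them overlapped the gamma-activated site TTCTGGGAA, and a further site, TTCCTGGAA, began 58 bases before the start. ISG15 and B2M had the same layout of 2 overlapping response elements, GAAAGGGAAA with GAAACCGAAA in ISG15 and GAAAAGGAAA with GAAACTGAAA in B2M. IFI6 held 3 separate matches, and IFITM1 and IFITM3 held 2 separate matches each. IFITM1 also held a gamma-activated site match, TTCTGAGAA, which began 12 bases before the start and overlapped its second response element. Each window searched ran from 250 bases before to 50 bases after the start, on both strands. Of 35116 RefSeq promoter windows of that length, 3.57% held the response element letters and 7.66% the gamma-activated site letters. Promoters were found for 8 of the 9 genes, and IFITM2 had no entry. In STAT2 neither motif was matched, and in IRF9 there was 1 gamma-activated site match, TTCTGGGAA, beginning 63 bases before the start. Matches describe letters and are not shown to be bound in these cells.

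**Figure D1:**
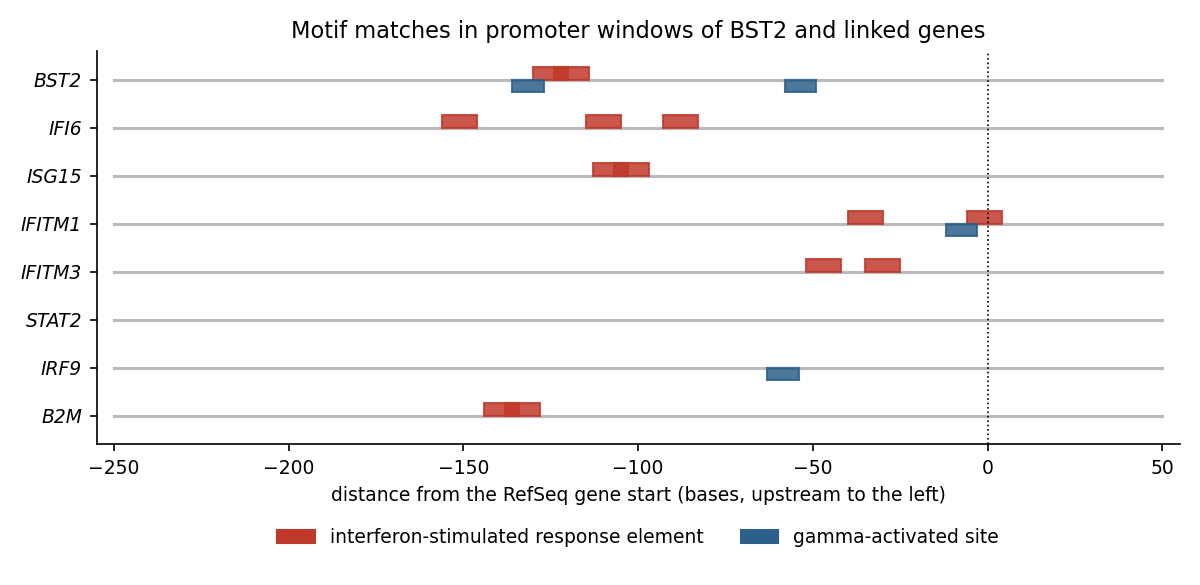
Motif matches in the promoter windows of 8 genes, drawn along the distance from the RefSeq gene start in bases, with upstream to the left. Red boxes are response element letters and blue boxes are gamma-activated site letters; BST2, ISG15 and B2M each show 2 overlapping red boxes that begin between 144 and 107 bases upstream, and STAT2 shows none.

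BST2 was lower in Y483E than in Y483F, with no overlap between the lines. The gene (ENSG00000130303, chr19:17402939-17405648, minus strand) had 2.25, 3.68 and 4.56 FPKM in Y483E replicates 1, 2 and 3, and 5.53, 6.61 and 6.94 FPKM in Y483F replicates 1, 2 and 3. The highest Y483E library lay below the lowest Y483F library, and replicate 1 was the lowest library of each line. The means were 3.50 ± 1.17 FPKM (SD, n = 3) in Y483E and 6.36 ± 0.736 FPKM (SD, n = 3) in Y483F, a ratio of 0.550. The difference of mean log2(FPKM + 1), Y483E minus Y483F, was -0.74 ± 0.19 (SE from limma). It was -1.01 between the replicates 1 and -0.61 between the libraries numbered 4 and 5. Over the 12833 genes, 64, which is 0.499%, had a log2 difference at or below that of BST2. Leaving out each library in turn gave differences from -0.91 to -0.52, and the smallest came without Y483E replicate 1. These levels rest on few reads: 45, 96 and 94 in Y483E, and 106, 133 and 158 in Y483F. For the lowest, 45 reads, counting error alone gives an exact Poisson 95% interval of 32.8 to 60.2 reads, and for the 106 reads of Y483F replicate 1 it gives 86.8 to 128. In these bulk libraries, fewer cells with the transcript and less of it per cell cannot be told apart. In the authors' deposited table of 1652 listed genes, BST2 had a log2 fold change of -0.86. IRF9 was the only other of the 9 genes listed there. DESeq2 on recovered reads gave an unadjusted p under 0.05 for the same number of genes, 1652 of 31210. The 9 genes were chosen with this contrast known, so nothing is read from their being listed.

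Of the 9 genes, BST2 and IRF9 were lower in Y483E with no overlap, IFI6 was higher with no overlap, and 6 had overlapping lines. Over all genes tested, 7.37% were lower and 9.72% higher with no overlap, and since the genes were chosen on this contrast nothing is read from their count against these shares. A mean of at least 1 FPKM was reached by 7 of the 9. IFITM3 and IRF9 stayed under it, and their differences over all 6 libraries come from the fit without that minimum.

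**Figure D2:**
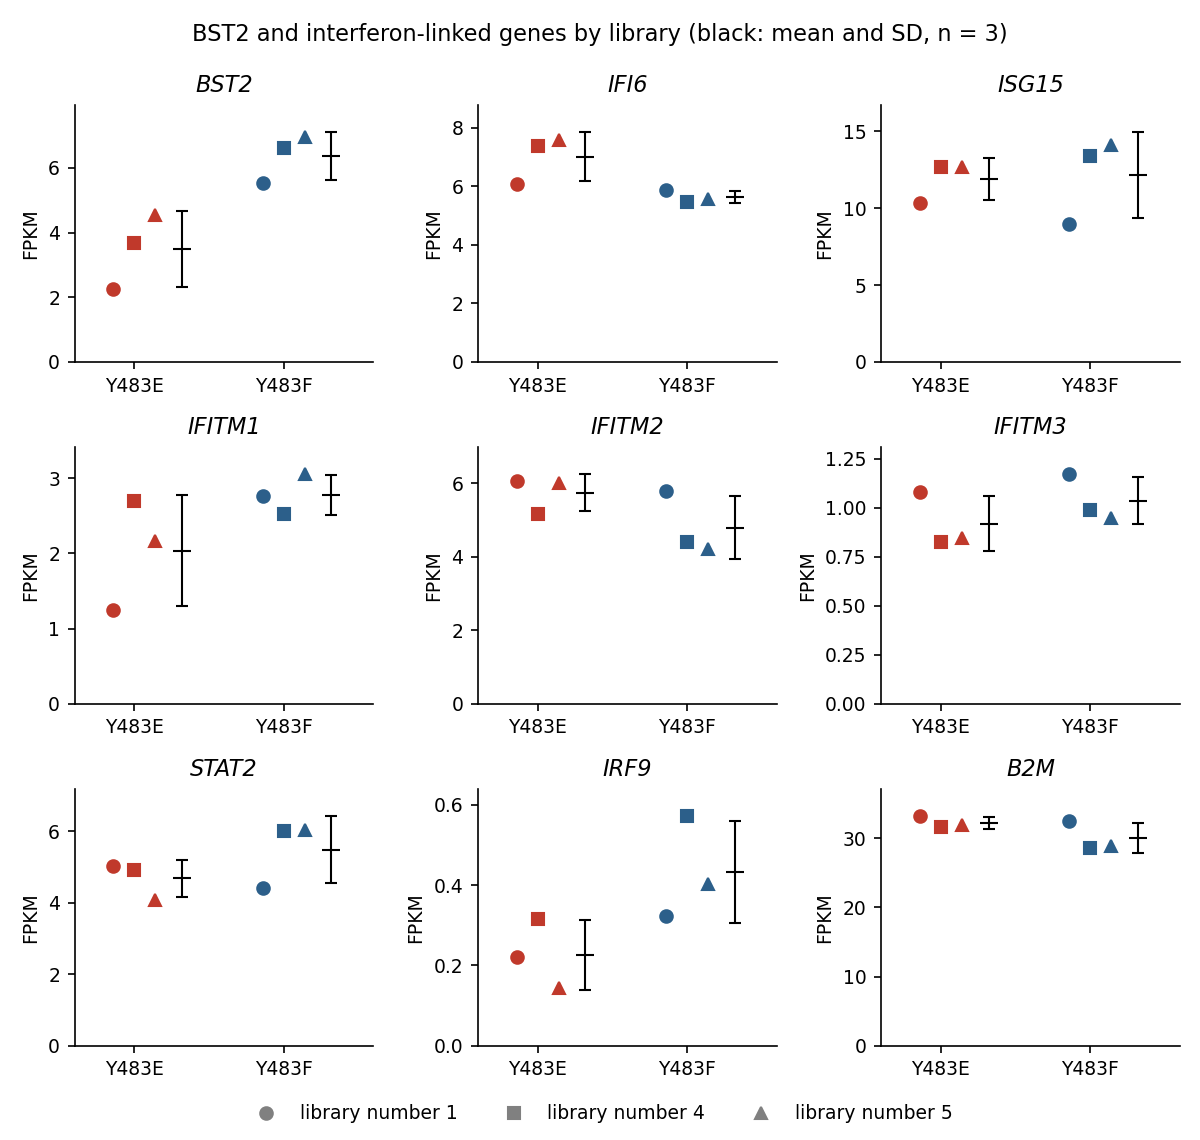
FPKM of the 9 genes in each library, on a linear axis from 0 for each gene. Red marks are Y483E and blue marks Y483F, shapes give the library number, and black bars are the mean and SD of 3 libraries; the BST2 marks of Y483E all sit below those of Y483F, and those of ISG15 overlap.

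IFI6 and ISG15 are also induced by interferon; IFI6 was higher in Y483E, and ISG15 was near the same mean in both lines. IFI6 (chr1:27666061-27672218, minus strand) codes for a small hydrophobic protein of cell membranes. It had 6.08, 7.39 and 7.59 FPKM in Y483E and 5.87, 5.46 and 5.57 FPKM in Y483F. Every Y483E library lay above every Y483F library, but Y483E replicate 1 was close to them. The means were 7.02 ± 0.822 and 5.63 ± 0.213 FPKM (SD, n = 3), a log2 difference of 0.27 ± 0.08 (SE). Between the replicates 1 it was 0.042, and between the libraries numbered 4 and 5 it was 0.38. ISG15 (chr1:1001138-1014540, plus strand) codes for a ubiquitin-like protein that is attached to other proteins. It had 10.3, 12.7 and 12.7 FPKM in Y483E and 8.997, 13.4 and 14.1 FPKM in Y483F. The Y483E libraries lay within the range of the Y483F libraries, whose replicate 1 was the lowest of all 6. The means were 11.9 ± 1.35 and 12.2 ± 2.77 FPKM (SD, n = 3), and the log2 difference, -0.012 ± 0.16 (SE), was smaller than its error. It was 0.18 between the replicates 1 and -0.11 between the libraries numbered 4 and 5, and its sign turned when single libraries were left out.

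The IFITM proteins sit in cell membranes and hinder the fusion of incoming viruses, IFITM1 mainly at the cell surface and IFITM2 and IFITM3 mainly in endosomes. Their 3 genes lie together on chromosome 11 and overlapped between the lines. IFITM1 (chr11:313506-315272, plus strand) had 1.24, 2.70 and 2.16 FPKM in Y483E and 2.76, 2.52 and 3.05 FPKM in Y483F. Its Y483E replicate 1 was low, with 24 reads, and Y483E replicate 2 lay among the Y483F libraries. The means were 2.03 ± 0.737 and 2.78 ± 0.264 FPKM (SD, n = 3), a log2 difference of -0.34 ± 0.18 (SE). It was -0.74 between the replicates 1 and -0.14 between the libraries numbered 4 and 5, and it was also -0.14 when Y483E replicate 1 alone was left out.

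IFITM2 (chr11:307631-315272, plus strand) had 6.05, 5.17 and 6.01 FPKM in Y483E and 5.79, 4.39 and 4.20 FPKM in Y483F. Y483F replicate 1 lay among the Y483E libraries. The means were 5.75 ± 0.499 and 4.80 ± 0.865 FPKM (SD, n = 3), a log2 difference of 0.23 ± 0.11 (SE), where that of IFITM1 was negative. It was 0.055 between the replicates 1 and 0.31 between the libraries numbered 4 and 5, and 0.35 without Y483F replicate 1. In GENCODE 29, 351 bases of exon, 32.5% of the exon bases of IFITM1, also belong to IFITM2 on the same strand, so the division of reads between them is uncertain. IFITM3 (chr11:319669-327537, minus strand) had 1.08, 0.827 and 0.845 FPKM in Y483E and 1.17, 0.9897 and 0.948 FPKM in Y483F. The lines overlapped, and each library had between 21 and 27 reads. The log2 difference was -0.088 ± 0.099 (SE), with -0.062 between the replicates 1 and -0.10 between the libraries numbered 4 and 5. In GENCODE 29, 287 exon bases of IFITM3, 21.3% of them, also belong to AC136475.5 on the opposite strand. Strand use in the counting is unknown, so these reads may not all be of IFITM3. The 3 IFITM genes are near-identical copies over parts of their length. The sources used here do not say how the authors' counting treated reads that match several of them.

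STAT2 and IRF9 code for subunits of the complex that binds the response element. STAT2 (chr12:56341597-56360155, minus strand) had 5.03, 4.92 and 4.09 FPKM in Y483E and 4.41, 6.01 and 6.04 FPKM in Y483F. Y483F replicate 1 lay inside the Y483E range, and the other Y483F libraries lay above it. The means were 4.68 ± 0.518 and 5.48 ± 0.934 FPKM (SD, n = 3), a log2 difference of -0.18 ± 0.12 (SE). The difference was 0.16 between the replicates 1 and -0.36 between the libraries numbered 4 and 5, so its sign depended on the library number.

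IRF9 (chr14:24161053-24166565, plus strand) had the lowest mean of the 9 genes, 0.329 FPKM. It had 0.221, 0.317 and 0.143 FPKM in Y483E, from 15, 28 and 10 reads, and 0.323, 0.571 and 0.402 FPKM in Y483F, from 21, 39 and 31 reads. The lines did not overlap, but Y483E replicate 2 and Y483F replicate 1 differed by less than counting error, with exact Poisson 95% intervals of 18.6 to 40.5 and 13.0 to 32.1 reads. The ratio of the means was 0.525, and the log2 difference, which the added 1 FPKM shrinks at such levels, was -0.22 ± 0.09 (SE). It was -0.12 between the replicates 1 and -0.27 between the libraries numbered 4 and 5. On recovered reads, edgeR gave a log2 fold change of -0.90 ± 0.34 (SE). The authors' deposited table gave -0.91. In GENCODE 29, 1838 exon bases of IRF9, 48.4% of them, also belong to AL136295.5 on the same strand, so these reads cannot be assigned to IRF9 with certainty.

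B2M codes for the light chain of class I major histocompatibility molecules, which show peptides to T cells, and was the most abundant of the 9 genes. B2M (chr15:44711487-44718877, plus strand) had 33.2, 31.5 and 31.9 FPKM in Y483E and 32.5, 28.6 and 28.9 FPKM in Y483F. Y483F replicate 1 lay inside the Y483E range, and the other Y483F libraries lay below it. The means were 32.2 ± 0.844 and 29.97 ± 2.16 FPKM (SD, n = 3), a log2 difference of 0.10 ± 0.06 (SE), from between 3127 and 4470 reads a library. It was 0.029 between the replicates 1 and 0.14 between the libraries numbered 4 and 5.

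Across all 6 libraries, the mean levels ran in the order B2M (31.1 FPKM), ISG15 (12.0), IFI6 (6.33), IFITM2 (5.27), STAT2 (5.08), BST2 (4.93), IFITM1 (2.41), IFITM3 (0.976) and IRF9 (0.329). The order also depends on the gene lengths used, 6079 bases for B2M and 941 for ISG15. Most neighbours kept this order in 6 of 6 libraries. IFITM2 was above STAT2 in 4 of 6 libraries and STAT2 above BST2 in 2 of 6, so these 3 genes could not be ranked. BST2 was below STAT2 in Y483E replicates 1 and 2, and above it in the other 4 libraries.

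The genes next to BST2 on chromosome 19 are described beside it. BST2 was picked for its difference between the lines, so nothing is read from their smaller differences. Within 100 kb, 7 other genes had a mean of at least 1 FPKM, 4 with a higher and 3 with a lower mean log2 level in Y483E, and the differences ran from -0.18 (AC010319.4) to 0.17 (ABHD8). MVB12A, a subunit of the ESCRT-I sorting complex, starts 74 bases from BST2 on the opposite strand, so the printed stretch of the BST2 promoter also holds the annotated start of MVB12A. MVB12A had 14.4 ± 0.375 FPKM in Y483E and 13.2 ± 0.725 in Y483F (SD, n = 3), a log2 difference of 0.12 ± 0.05 (SE). MRPL34 differed by 0.16, DDA1 by 0.074, GTPBP3 by -0.045 and ANO8 by -0.16 on the same scale. None of the 7 passed limma's threshold of an adjusted p of 0.05, but neither did any of the 12833 genes tested. With 0 genes called, this does not separate the 7 from BST2. The lowest adjusted p by limma among them was 0.272. MVB12A and ABHD8 were higher in Y483E with no overlap, beside 9.72% of all genes tested, and the others overlapped. BISPR, a long noncoding RNA gene described as an interferon-stimulated positive regulator of BST2, starts 38 bases from BST2 and was looked up after its values were seen. It had 3, 5 and 4 reads in Y483E and 2, 11 and 10 reads in Y483F, too few to compare. Of the 920 genes tested on chromosome 19, 464 had a lower mean log2 level in Y483E, with a median difference of -0.0013.

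**Figure D3:**
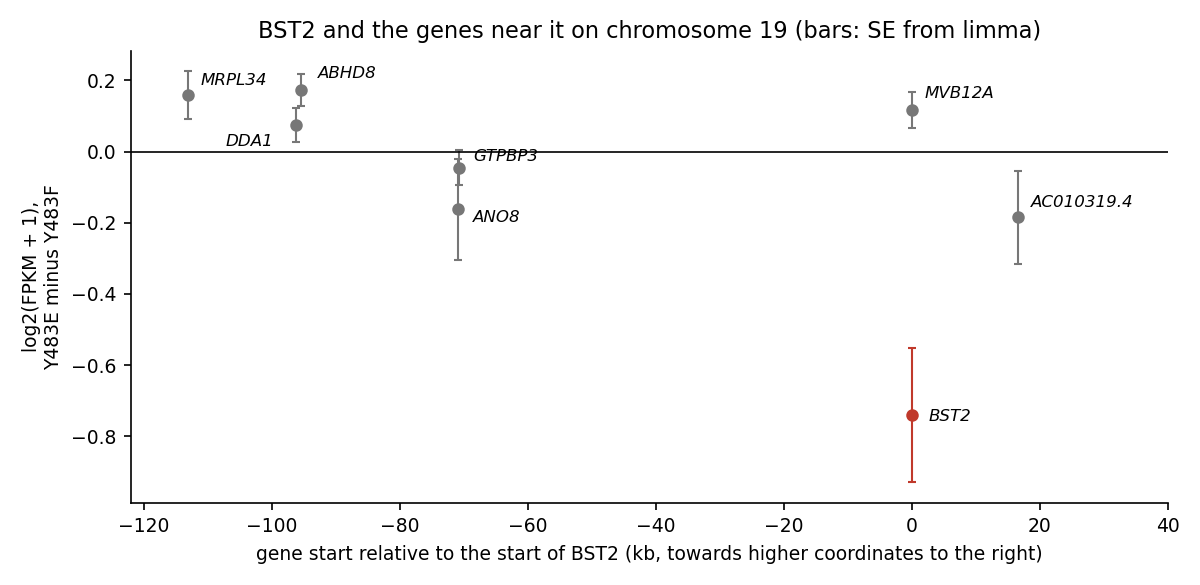
Log2 difference between the lines for BST2 (red) and the 7 genes within 100 kb with a mean of at least 1 FPKM (grey), by the distance of each gene's start from that of BST2 in kb. Points are differences of mean log2(FPKM + 1), Y483E minus Y483F, with the SE from limma; BST2 lies at -0.74 and the others between -0.18 and 0.17.

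Around the IFITM genes, 8 other genes within 100 kb had a mean of at least 1 FPKM. PSMD13, RIC8A, SIRT3 and SIGIRR had positive differences, and B4GALNT4, PGGHG, AC136475.10 and AC136475.2 had negative ones. They ran from -0.30 (AC136475.2, an antisense gene within the span of IFITM2) to 0.28 (SIGIRR), and the lowest adjusted p by limma was 0.351. Around ISG15 there were 13 such genes, 3 positive (HES4, NOC2L and C1orf159) and 10 negative (SAMD11, AGRN, KLHL17, LINC02593, AL645608.7, AL645608.6, AL645608.1, AL645608.2, AL645608.3 and AL390719.1). They ran from -0.48 (AL645608.6) to 0.18 (HES4), and the lowest adjusted p was 0.311. No gene at these loci was called by limma, which called 0 of all 12833 genes tested.

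Other genes induced through the type I receptor were described from a list of 66 names without the 6 induced genes above. Of the 64 found in the table, 26 had a mean of at least 1 FPKM, and 38 were below it, among them IFIT1 at 0.786 FPKM and IFIT3 at 0.240, which were looked up after their values were seen. Of the 26 tested, 14 had a positive and 12 a negative log2 difference, and the median was 0.0021. Over all 12833 genes tested, 6777 were positive and the median was 0.0070. By limma 0 of the 26 rose and 0 fell, but limma called 0 of all genes tested. In the same fit 0 of the 26 had an unadjusted p under 0.05, beside 12.2% of all genes tested. The lowest adjusted p by limma was 0.433. On recovered reads, 43 of the list could be tested by edgeR, and 0 were called, where edgeR called 0.0125% of all genes higher and 0.0313% lower. With the libraries numbered 4 and 5 alone edgeR called 1 of them, LGALS9, which fell by 1.32 on the log2 scale (adjusted p = 0.022). That fit called 7.98% of all 16308 genes tested lower and 7.07% higher. LGALS9, which codes for a sugar-binding lectin, had a mean of 0.192 FPKM. The log2(FPKM + 1) differences of the 26 genes above the minimum lay between -0.15 and 0.13. Genes under the minimum differed by more on the edgeR scale with all 6 libraries, where BST2 had a log2 fold change of -0.87. On that scale LGALS9 also had -0.87 (adjusted p = 0.354), IFIT3 -0.51 and TRIM5 -0.48, and NMI had 0.53, all 4 picked after their values were seen. Among the 26, groups did not overlap for PML (lower) and HERC5 (higher), beside 7.37% lower and 9.72% higher over all genes tested. Under the minimum, they did not overlap for TRIM5, IFI16 and RSAD2 (lower) and DDX58 (higher), and IFI16 and RSAD2 had means of 0.0136 and 0.011 FPKM. The share over all genes under the minimum was not worked out, so nothing is read from these genes.

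Among the named genes of the list, LGALS3BP, a secreted glycoprotein, had 81.3 ± 1.52 FPKM in Y483E and 84.1 ± 2.23 in Y483F (SD, n = 3). ADAR, an enzyme that edits double-stranded RNA, had 37.1 ± 1.74 and 37.7 ± 1.38 FPKM. The largest differences among the 26 were those of OAS3, a sensor of double-stranded RNA that activates RNase L, at 0.973 ± 0.174 against 1.19 ± 0.243 FPKM, and of IFIH1, which codes for the RNA sensor MDA5, at 1.01 ± 0.233 against 1.19 ± 0.042 FPKM. The log2 differences of these 2 genes were -0.15 ± 0.11 (SE, limma adjusted p = 0.619) and -0.13 ± 0.10 (SE, limma adjusted p = 0.638). Of 21 listed genes with a RefSeq promoter, 13 (61.9%) held response element letters, against 317 of 9005 (3.52%) of all genes tested. The median difference was 0.0045 for those 13 and 0.011 for the 8 without the letters. The 13 and the 8 are few genes, and whether the letters bear on any difference between the lines was not tested.

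**Figure D4:**
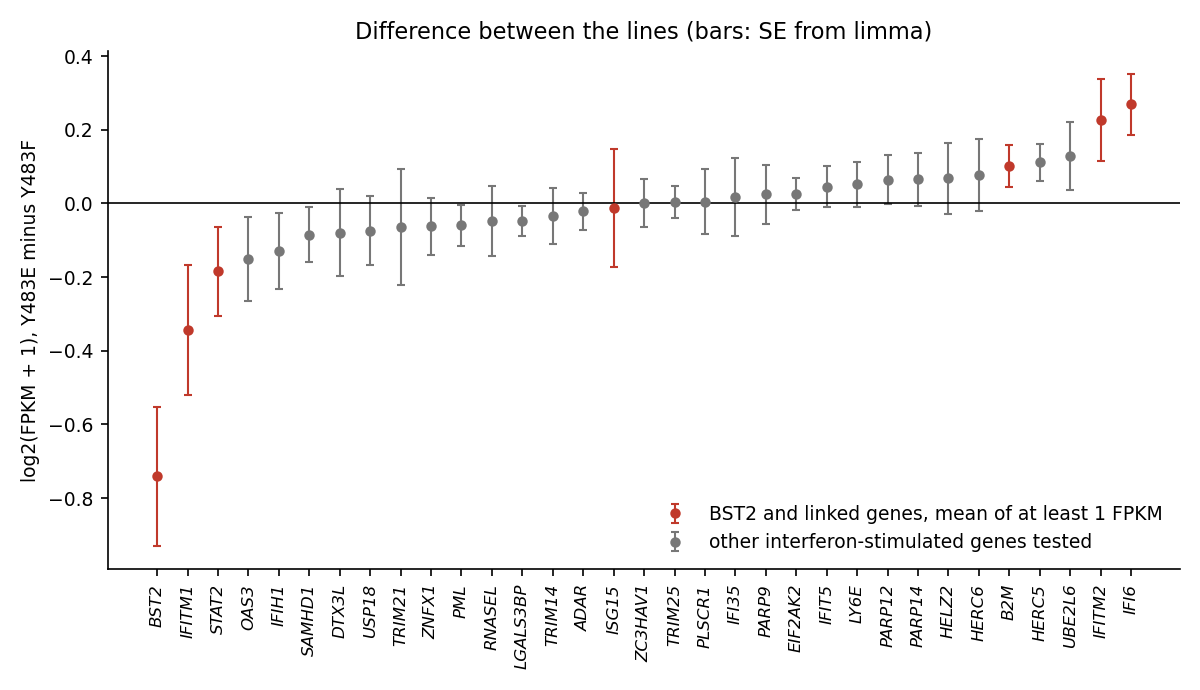
Log2 difference between the lines, Y483E minus Y483F, with the SE from limma, for the 7 of the 9 genes that reached a mean of 1 FPKM (red) and the 26 other interferon-stimulated genes above that minimum (grey), sorted by size. BST2 lies at -0.74 and the 26 grey genes lie between -0.15 and 0.13.

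Of the ligands, 22 interferon genes were in the table, 0 reached a mean of 1 FPKM, 18 had no read in any library and the highest mean was 0.0183 FPKM. Of 40 receptor and JAK-STAT genes without STAT2 and IRF9, 26 were tested by limma and 0 passed the threshold, as over all genes tested. By limma 4 had an unadjusted p under 0.05, beside 12.2% of all genes tested, and the lowest adjusted p was 0.315. In this list 13 differences were positive and 13 negative, with a median of 0.0043. IFNAR1, the receptor chain on chromosome 21, had 13.5 ± 1.10 FPKM in Y483E and 16.0 ± 1.57 in Y483F (SD, n = 3), with no overlap and a log2 difference of -0.23 ± 0.08 (SE, limma adjusted p = 0.357). With the libraries numbered 4 and 5 alone the limma difference was -0.21 and missed the threshold (adjusted p = 0.05004). On the same libraries edgeR gave -0.23 with an adjusted p of 0.003. In that edgeR fit 3 of 38 genes of the list were called lower and 3 higher, beside 7.98% and 7.07% of 16308 genes tested. Limma called 1 gene of the list higher with these libraries and 0 lower, beside 2.70% and 3.01% of all genes tested. On the chromosome of IFNAR1, 122 of 139 tested genes had a negative difference, with a median of -0.14. The part of this in the IFNAR1 difference was not tested. IRF5, a transcription factor that induces interferon genes, had 4.005 ± 0.194 and 3.28 ± 0.280 FPKM (log2 difference 0.23 ± 0.07 SE, limma adjusted p = 0.315), with no overlap. PTPN11, a tyrosine phosphatase, had the highest mean of the list at 54.7 FPKM, followed by IRF2BP1 at 40.1 FPKM.

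Of 33 nucleic acid sensing genes in the table, 22 were tested, 12 with a positive and 10 with a negative difference, and the median was 0.0022. By limma 0 passed, as over all genes tested, with 2 at an unadjusted p under 0.05, beside 12.2% of all genes tested. MAVS, the mitochondrial adaptor of the RNA sensors, had 13.0 ± 0.128 FPKM in Y483E and 14.9 ± 0.825 in Y483F (SD, n = 3), a log2 difference of -0.18 ± 0.05 (SE, limma adjusted p = 0.304). It fell with the libraries numbered 4 and 5 alone, by 0.23 on the log2 scale (limma adjusted p = 0.046), where limma called 3.01% of all genes lower. Limma called 1 gene of the list lower there and 0 higher. With the same libraries edgeR called 5 of 24 genes of the list lower and 1 higher, beside 7.98% and 7.07% of all genes tested. MAVS lies on chromosome 20, where 278 of 349 tested genes had a negative difference, with a median of -0.09. RIOK3, a kinase that acts on MDA5, had 11.4 ± 0.725 and 10.2 ± 0.316 FPKM, a log2 difference of 0.15 ± 0.06 (SE, limma adjusted p = 0.372). It was called higher by edgeR with the libraries numbered 4 and 5 alone, at 0.19 (edgeR adjusted p = 0.032). DDX3X, at 44.9 FPKM, and PQBP1 had the highest means of this list.

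Among the class I genes, the partners of B2M, 21 of 29 were tested, 12 positive and 9 negative, with a median of 0.015. By limma 0 passed, as over all genes tested, and the lowest adjusted p was 0.298. In that fit 6 had an unadjusted p under 0.05, beside 12.2% of all genes tested. Groups did not overlap for 5 genes that were higher in Y483E, PSME1, RFXANK, ERAP2 and MR1 among them, and for 2 that were lower, PSME2 and TAP2, beside 9.72% and 7.37% over all genes tested. RFXANK, a subunit of the complex that binds major histocompatibility promoters, had 9.515 ± 0.817 FPKM in Y483E and 7.86 ± 0.319 in Y483F (SD, n = 3), a log2 difference of 0.25 ± 0.07 (SE, limma adjusted p = 0.298). With the libraries numbered 4 and 5 alone it rose, by 0.33 (limma adjusted p = 0.037), where 2.70% of all genes were called higher. In that fit 2 genes of the list were called higher and 0 lower. With the same libraries edgeR called 5 of 25 genes of the list higher and 2 lower, beside 7.07% and 7.98% of all genes tested. MR1, which presents small metabolites, had 1.26 ± 0.147 and 0.906 ± 0.181 FPKM, a log2 difference of 0.25 ± 0.10 (SE, limma adjusted p = 0.402). The chaperones CALR, at 313 FPKM, and CANX, at 180 FPKM, had the highest means.

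BST2 carries a GPI anchor, and 27 of 29 genes for making and trimming that anchor were tested, 10 positive and 17 negative, with a median of -0.022. By limma 0 passed, as over all genes tested, with 4 at an unadjusted p under 0.05, beside 12.2% of all genes tested. DPM3, a subunit of the enzyme that makes dolichol phosphate mannose, had 59.9 ± 5.61 FPKM in Y483E and 44.1 ± 1.78 in Y483F (SD, n = 3), a log2 difference of 0.43 ± 0.07 (SE, limma adjusted p = 0.257). DESeq2 on recovered reads called it higher, with an adjusted p of 0.005, and called 0.626% of 11014 genes higher and 0.663% lower in all. DPM1, the catalytic subunit of the same enzyme, had 53.1 ± 1.97 and 60.1 ± 2.18 FPKM, a log2 difference of -0.17. PIGU, a subunit of the transamidase that attaches the anchor, had 7.24 ± 0.203 and 8.66 ± 0.794 FPKM, a log2 difference of -0.23. DPM1 and PIGU lie on chromosome 20.

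BST2 can feed into NF-kB signalling, and of 31 genes of that pathway 17 were tested, 8 positive and 9 negative, with a median of -0.0019. By limma 0 passed, as over all genes tested, and 1 had an unadjusted p under 0.05, beside 12.2% of all genes tested. SYK, a kinase that binds BST2, had 9.07 ± 0.427 FPKM in Y483E and 7.99 ± 0.278 in Y483F (SD, n = 3), a log2 difference of 0.16, and NFKBIA, an inhibitor of NF-kB, differed by -0.13. NFKBIB and TRAF2 had the highest means. Of 23 other restriction factor genes in the table, 14 were tested, 9 positive and 5 negative, with a median of 0.032. By limma 0 passed and 0 had an unadjusted p under 0.05, beside 0 and 12.2% over all genes tested. TRIM28, a corepressor that silences retroviral elements, had the highest mean at 264 FPKM. SERINC1 had 43.6 FPKM in Y483E and 40.9 in Y483F, and SERINC3, which hinders the entry of retroviruses and lies on chromosome 20, had 24.6 and 26.6.

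Genes were ranked by how closely their levels followed BST2 from library to library. By Pearson's r of log2(FPKM + 1) over the 6 libraries, which hold both lines, FAM173A (r = 0.994), MIR331 (0.991), RPS15A (0.986), PPP1R10 (0.984) and GLA (0.981) were the most like it. Of 12832 other genes, 114 had an r of at least 0.9. The differences of these 5 genes were -0.16, -1.06, -0.18, -0.06 and -0.14 in the same order, and MIR331 had between 0 and 6 reads a library. IFITM3 and IRF9 were under the minimum and not ranked. Of the other 6 linked genes, IFITM1 came nearest (r = 0.839, rank 291), ISG15 had 0.408 and STAT2 0.391, and IFI6 (-0.44), IFITM2 (-0.71) and B2M (-0.79) had negative values. With each line's mean removed, so that only variation within lines was left, IFI6 (r = 0.787), IFITM1 (0.752) and ISG15 (0.699) had positive values, and STAT2 (-0.11), IFITM2 (-0.41) and B2M (-0.59) had negative ones. The most like by this measure were MIR331 (0.999), SEMA3C, DUSP16 and PRX (0.998 each) and RPL23AP42 (0.996), and 513 genes had an r of at least 0.9. These correlations describe 6 libraries in which BST2 was lowest at number 1 in both lines, and no p is attached to them.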

How the data were processed

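The submitters' processing notes name featureCounts 1.5.0-p3 and HISAT2 2.0.5, as well as DESeq, DESeq2 and StringTie 1.3.3b, with no role given for each. The genome build of the alignment was not given in the sources used here. The authors deposited FPKM values for 58735 genes. For 1652 genes, the deposited comparison table holds the authors' raw read counts and the signal made by dividing these counts by a size factor per library. It also holds the authors' log2 fold changes and the authors' p-values.

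Of the 58735 genes, 58631 had the coordinates of GENCODE 29 (GRCh38), all 9 described genes included. FPKM times gene length times the library total that the listed counts imply gave whole reads within 0.01 for 100% of the values, and these equalled the authors' counts for all 1652 genes. The library protocol names directional and non-directional libraries alike, so strand use is unknown.

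The test was limma 3.58.1 with a trend, two-sided, on log2(FPKM + 1) for genes with a mean of 1 FPKM or more, with Benjamini-Hochberg adjustment over 12833 genes and a threshold of 0.05. Log2 differences understate the change of low genes. On recovered reads, edgeR 4.0.16 (quasi-likelihood) and DESeq2 1.42.0 were run; edgeR with single libraries left out or with the libraries numbered 4 and 5 was added once the data were known. The fits were tested on simulated data. Intervals and a floor of 3 reads for a count of 0 cover counting error only.

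The described genes and the gene lists were chosen with earlier results of these data known. Genes were named by a rule: the 9 genes, every gene within 100 kb of BST2, the IFITM genes or ISG15 with a mean of 1 FPKM or more, the 5 genes most like BST2 by each of 2 measures, and from each list up to 4 past the threshold or, failing that, the 2 with the highest means and the 2 with the largest differences. Others are said to be chosen after their values were seen, as were the genes named because their groups did not overlap. Some listed genes enter the counts and medians but are not reported here by name.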

Additional observations from a re-analysis of the deposited data

How the results depend on the processing

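BST2 was lower in Y483E under each of the 23 alternatives tried; leaving out 1 library gave -0.91 to -0.52 by limma and -1.08 (without Y483E replicate 3) to -0.64 by edgeR. The limma count of 0 genes became 7 by edgeR, 14 by edgeR without TMM and 142 by DESeq2. With 1 library left out it stayed 0 by limma and ran from 1 to 1000 by edgeR (174 without Y483E replicate 1, 1 without replicate 2 or 3 of Y483E or replicate 3 of Y483F, 3 without Y483F replicate 2, 1000 without Y483F replicate 1). The libraries numbered 4 and 5 gave 733 by limma and 2454 by edgeR. Genes lower in Y483E with no overlap numbered 946, 1815 with no minimum, 506 with a minimum of 5 FPKM, 1296 to 2433 with 1 library left out (2433 without Y483F replicate 1) and 3444 with numbers 4 and 5; fewer libraries make overlap less likely by construction. The median of the interferon-stimulated genes, 0.0021, was -0.045 by DESeq2 and ran from -0.025 to 0.037 by limma with 1 library left out, the highest without Y483F replicate 1. By edgeR it was -0.032 and -0.057 without Y483E replicates 1 and 3, and -0.052 and -0.037 without Y483F replicates 2 and 3. Medians of the other lists stayed within -0.067 (GPI anchor genes) and 0.062 (other restriction factors and class I genes). That of the receptor and JAK-STAT genes changed sign, from -0.037 by edgeR to 0.030 by limma with numbers 4 and 5. Those of the sensing genes (-0.025 to 0.020), the NF-kB genes (-0.023 to 0.044) and the class I genes (-0.011 to 0.062) also changed sign. The cause was not tested. Same-numbered libraries of the lines had correlations of 0.056, 0.139 and -0.095 in their deviations from the group means over 12833 genes, so the numbers were not taken to pair them; with a replicate block limma called 0 genes, 1800 had an unadjusted p under 0.05, and the BST2 difference was -0.74. With the minimum of 5 FPKM, BST2 could not be given. Read depth limits IRF9, IFITM3 and IFITM1 most.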
